A study of Caenorhabditis elegans with 45 samples.

Results

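The expression of 7 regulators of the C. elegans molting cycle was followed through 3 time courses of larval growth: lin-42, nhr-23, nhr-25, nhr-85, blmp-1, bed-3 and grh-1. They were taken by gene symbol from the raw-count table, where 7 of 7 symbols were found among 20182 rows. RNA came from whole worms, 1 library per time point, in 45 libraries. The continuous course held 16 hourly libraries of the wild-type strain N2, fed after hatching and named hours 21 to 36; the time in development recorded for the same worms ran 1 h later, and the hours of the names are used here. The dauer exit course held 22 hourly libraries of N2 larvae that had been in dauer, the arrested stage larvae enter when conditions are poor, taken 1 to 22 h after they were returned to food. The glp-4 course held 7 libraries of glp-4(bn2) larvae grown continuously, taken every 2 h from hour 40 to hour 52. glp-4(bn2) is a temperature-sensitive mutant that makes few germ cells at the restrictive temperature; no source used here gives the growth temperature.

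A nematode larva molts at the end of each larval stage, making a new cuticle under the old one and shedding the old. In the epidermis, genes for cuticle building and shedding are switched on and off with each molt by nuclear hormone receptors and other DNA-binding proteins, some related to the insect factors that act downstream of ecdysone. NHR-23, related to Drosophila Hr3 and to mammalian ROR, is required for molting. NHR-25 is the relative of Drosophila Ftz-F1 and is required in the epidermis and for molting. NHR-85 is related to Drosophila E75 and to mammalian Rev-erb. LIN-42 is the worm relative of the circadian protein PERIOD, and lin-42 mutants molt irregularly. BLMP-1, a zinc-finger protein related to mammalian Blimp-1, acts on the amplitude of cycling genes in larvae. BED-3 is a BED-type zinc-finger protein needed for molting and for vulval cell divisions, and GRH-1 is the worm Grainyhead, the family that governs epidermal barriers in animals.

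The genes lie on 4 chromosomes of assembly WBcel235. On chromosome I are nhr-23 (7214745 to 7221299, plus strand, 6 annotated transcripts), nhr-85 (13055201 to 13062122, minus strand, 2 transcripts), blmp-1 (10409302 to 10414773, plus strand, 2 transcripts) and grh-1 (1258201 to 1268155, minus strand, 3 transcripts). lin-42 lies on chromosome II (1233236 to 1252359, minus strand, 7 transcripts), bed-3 on chromosome IV (9916524 to 9921967, plus strand, 1 transcript) and nhr-25 on chromosome X (13008493 to 13013964, plus strand, 3 transcripts). The counts are per gene, so the transcripts of lin-42, which include forms with and without the PERIOD-like region, were not separated. Protein-coding genes on the opposite strand overlap nhr-85 (npr-14, highest level 3.19 CPM) and the last bases of bed-3 (dur-1, median level 146 CPM); the library kit keeps strand, but no source used here says whether the counting did. Levels are given in CPM, counts per 1000000 counted reads of the library.

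Library totals ran from 18512549 to 43984242 counted reads in continuous N2, from 18521397 to 23904100 in dauer exit and from 23978316 to 36817376 in glp-4, and every member had at least 35 reads in every library and passed the filter on low counts in each course. No 2 libraries were copies: at least 16172 genes had different counts in each of the 990 pairs. The summed level of 6 germline marker genes was 547 to 2173 CPM in continuous N2, 554 to 2887 CPM in dauer exit and 40.8 to 67.9 CPM in glp-4. The sperm genes msp-3 and msp-40 had 0 reads in all 7 glp-4 libraries, where 3 reads in the shallowest library would be 0.1251 CPM.

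All 7 regulators rose and fell in continuous N2. The highest libraries within hours 21 to 28 and within hours 29 to 36 lay 7 to 9 h apart. Those of nhr-85 were at the first hour of each span. lin-42 was lowest at 21.3 CPM (hour 36), had a median of 137 CPM and was highest at 651 CPM (hour 23), a 30.5-fold range. bed-3 ran from 3.94 CPM (hour 36) through a median of 23.1 CPM to 174 CPM (hour 24), the widest range of the 7 at 44.2-fold. grh-1 ran from 5.70 CPM (hour 36) through 25.0 CPM to 126 CPM (hour 23), a 22.1-fold range. These 3 genes made sharp pulses with deep gaps between them. The ranges of the other 4 were 16.5-fold for nhr-25, 16.3-fold for nhr-85, 8.55-fold for nhr-23 and 7.23-fold for blmp-1. In whole-worm RNA, fewer cells expressing a gene and less RNA per cell cannot be told apart.

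**Figure D1:**
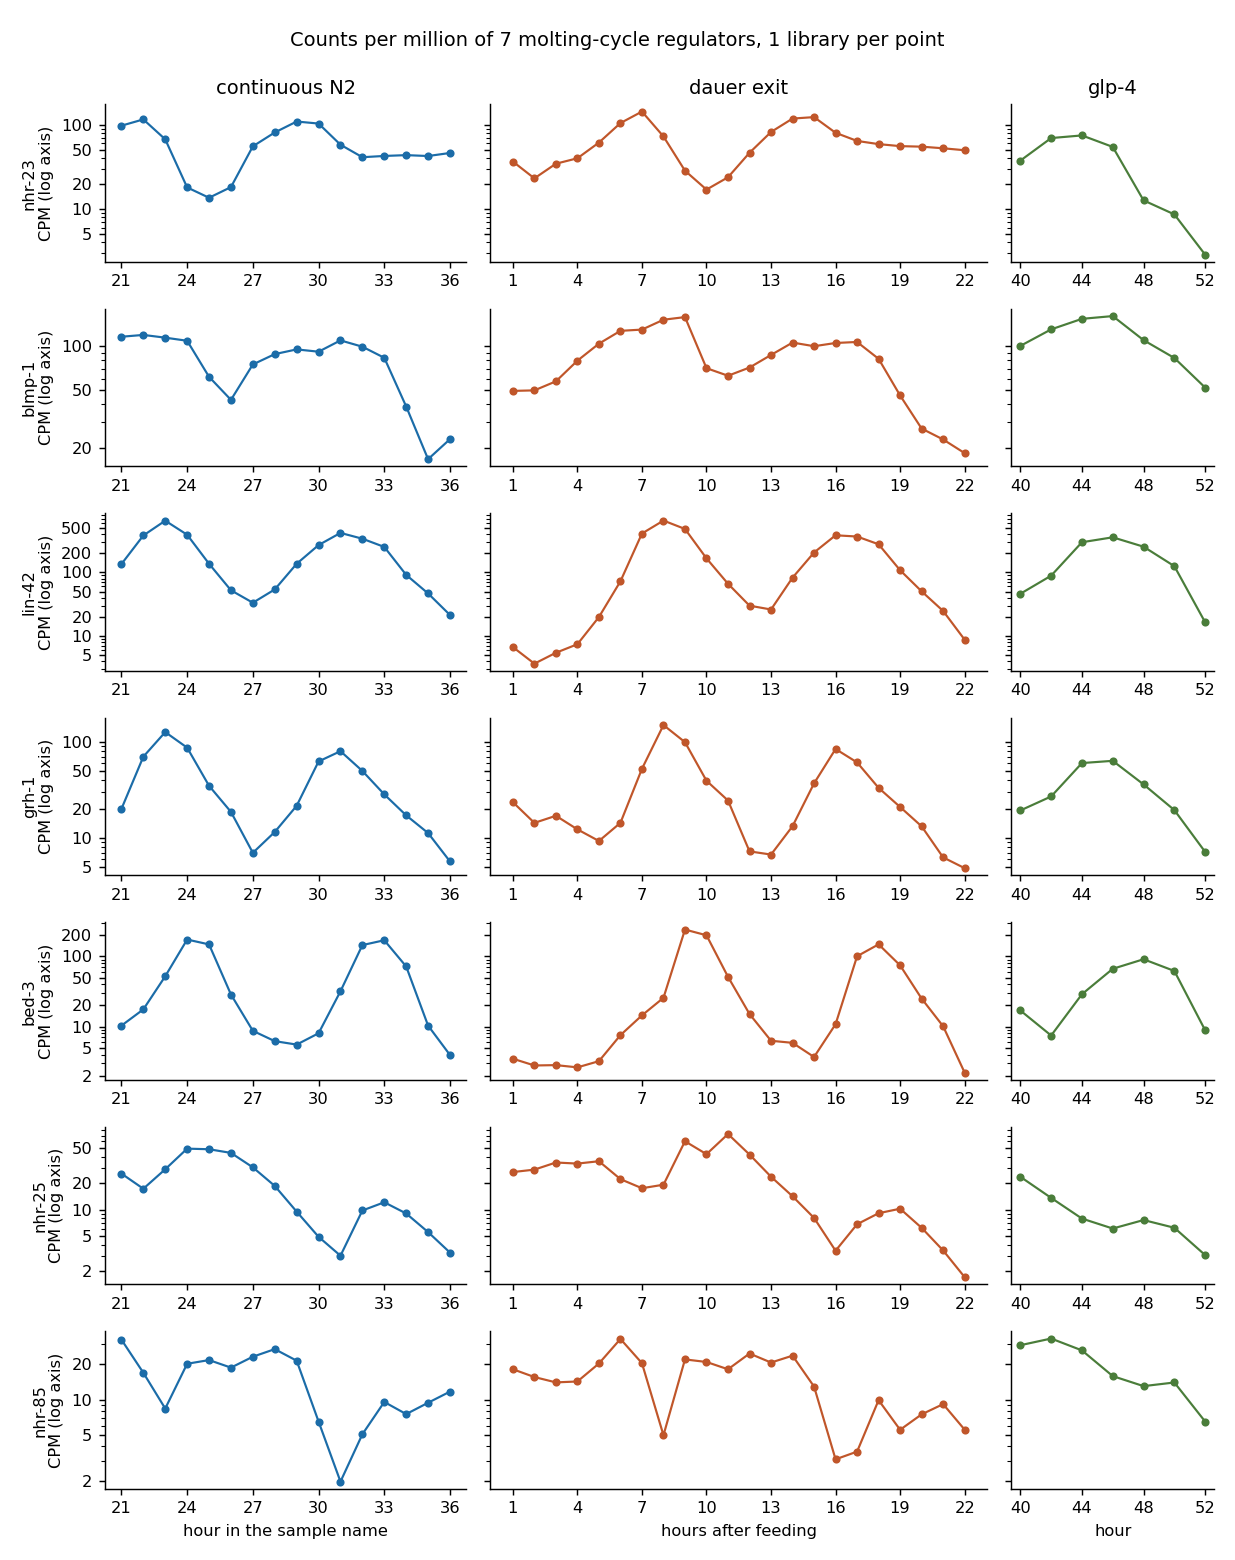
Level in CPM (log axis) of each regulator against the hour of the library, in continuous N2, dauer exit and glp-4; each point is 1 library. Pulses of lin-42, grh-1 and bed-3 come at hours 23 to 24 and 31 to 33 in N2 and at hours 8 to 9 and 16 to 18 in dauer exit, and a single broad pulse is seen in glp-4.

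A wave of 8 h was fitted to the counts with a linear term for the hour (edgeR quasi-likelihood F-test, Benjamini-Hochberg adjustment over all genes tested). A gene was called when its adjusted p was below 0.05 and its amplitude, from mean to peak, was at least 0.5 on the log2 scale. With 1 library per hour, the p-values measure scatter about the fitted curve, not the spread between replicate cultures. In continuous N2, 7 of 7 members were called, where 26.3% of the 15622 genes tested were called. The median amplitude was 1.18 for the members and 0.27 for all genes tested (log2). The members, and the gene lists used further below, were chosen with earlier results of these data known. Their shares beside those of all genes are therefore descriptions, not an independent test. bed-3 had the widest wave, 2.63 ± 0.17 (SE, 16 libraries, adjusted p = 8.72e-08). lin-42 followed with 1.88 ± 0.16 (adjusted p = 2.12e-06), then grh-1 with 1.67 ± 0.15 (adjusted p = 2.52e-06).

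The 3 nuclear receptors had shallower waves: 1.18 ± 0.13 for nhr-25 (adjusted p = 2.47e-05), 1.04 ± 0.17 for nhr-23 (adjusted p = 0.000912) and 1.00 ± 0.19 for nhr-85 (adjusted p = 0.00437). blmp-1 had the shallowest, 0.62 ± 0.17 (adjusted p = 0.0186), and its call was lost without the library of hour 31 (adjusted p = 0.0579). The shape of blmp-1 was that of long plateaus, each followed by a drop. It stayed between 109 and 120 CPM from hour 21 to hour 24 and fell to 42.7 CPM at hour 26. From hour 27 to hour 33 it stayed between 75.1 and 110 CPM. A deeper drop followed, to 38.4 CPM at hour 34, 16.6 CPM at hour 35 and 22.8 CPM at hour 36. Without the linear term, the waves of nhr-25 (adjusted p = 0.400) and nhr-85 (adjusted p = 0.489) were not called; both genes also fell across the course, as described with the trends.

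The regulators peaked in an order that spread across the cycle. In continuous N2, the fitted peak of nhr-23 came at 21.34 ± 0.21 h (SE). blmp-1 (22.93 ± 0.32 h), lin-42 (23.27 ± 0.11 h) and grh-1 (23.34 ± 0.11 h) peaked next, close together. bed-3 followed at 24.54 ± 0.09 h, nhr-25 at 25.80 ± 0.14 h and nhr-85 at 27.11 ± 0.23 h. On a circle of 8 h, which gene comes first depends on where the cycle is opened, here at nhr-23.

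Peak differences were compared with SEs from leaving out each library in turn. Of the 21 pairs of members, 18 differed by more than 2 SE in continuous N2 and 18 in dauer exit. In both courses the 3 pairs that did not were those among lin-42, blmp-1 and grh-1. The count in N2 was 15 without the linear term and 20 with a period of 9 h, and in dauer exit it was 18 in both settings. These SEs hold the period at 8 h, so a misfit of the period is not in them. In N2, nhr-23 peaked 1.93 ± 0.20 h before lin-42. grh-1 differed from lin-42 by 0.07 ± 0.15 h, whereas bed-3 came 1.27 ± 0.16 h after it and nhr-25 came 2.53 ± 0.22 h after it. nhr-85 peaked 3.83 ± 0.295 h after lin-42, close to the opposite side of an 8 h cycle. In dauer exit the same steps were 1.65 ± 0.29 h before lin-42 for nhr-23, 0.03 ± 0.18 h after it for grh-1, 1.29 ± 0.27 h after it for bed-3 and 2.55 ± 0.32 h after it for nhr-25. nhr-85 peaked 3.95 ± 0.62 h before lin-42 there, which on a circle of 8 h is again nearly opposite; its wave in that course was not called.

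**Figure D2:**
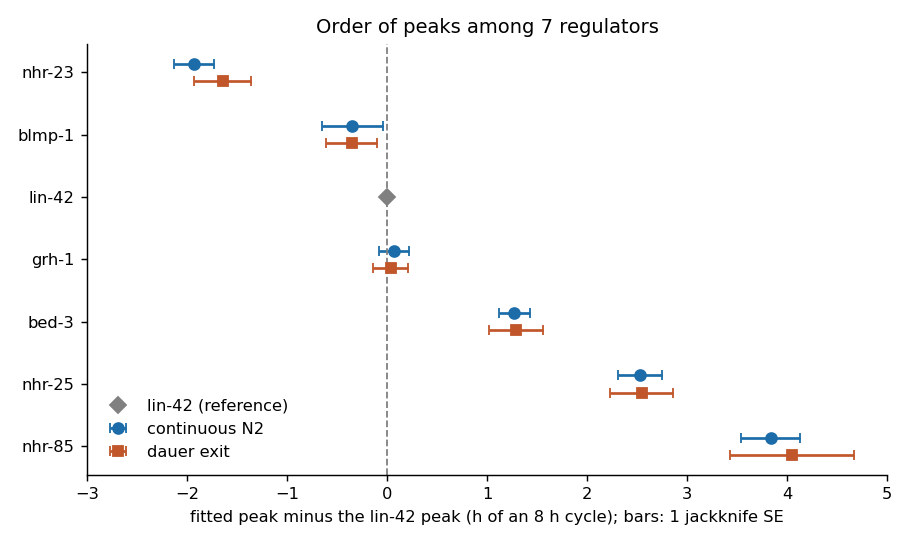
Fitted peak of each regulator relative to the lin-42 peak (hours of an 8 h cycle) in continuous N2 and dauer exit; points are fitted differences and bars are 1 jackknife SE from leaving out libraries. nhr-23 lies before lin-42 in both courses, blmp-1 and grh-1 lie beside it, bed-3 and nhr-25 follow, and nhr-85 is nearly opposite; its dauer exit difference of -3.95 h is drawn 8 h later, on the same circle.

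The highest libraries, without a fit, gave part of this order. In N2 they were taken within hours 21 to 28 and 29 to 36. For dauer exit the spans were hours 1 to 10 and 11 to 22. In continuous N2, nhr-23 was highest at hours 22 and 29, lin-42 and grh-1 both at hours 23 and 31, and bed-3 and nhr-25 tied at hours 24 and 33. blmp-1 was highest at hours 22 and 31 there. nhr-85, with a fitted peak at 27.11 h, was highest at hours 21 and 29, the first hours of the spans. Its level was 27.0 CPM at hour 28 and 21.5 CPM at hour 29, so hour 29 lay on a fall. In dauer exit, nhr-23 was highest at hours 7 and 15, lin-42 and grh-1 both at hours 8 and 16, and bed-3 at hours 9 and 18. blmp-1 was highest at hours 9 and 17, an hour after lin-42, and nhr-85 at hours 6 and 12. nhr-25 was highest at hours 9 (60.3 CPM) and 11 (72.8 CPM), on either side of the boundary between the spans. After a low of 3.43 CPM at hour 16, nhr-25 rose to 10.3 CPM at hour 19. At hour 23 in N2, lin-42 stood at 651 CPM and nhr-85 at 8.39 CPM, its lowest of hours 21 to 28. The same held in the next cycle, where lin-42 was highest at hour 31 (418 CPM) and nhr-85 was lowest at hour 31 (1.99 CPM). In dauer exit nhr-85 was lowest at hour 8 (4.97 CPM) and hour 16 (3.09 CPM), the hours at which lin-42 was highest (654 and 384 CPM).

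nhr-85 had sharp drops at the hours of the lin-42 peaks. Between them its level in N2 lay between 18.8 and 27.0 CPM from hour 24 to hour 28. It fell from 21.5 CPM at hour 29 to 6.50 CPM at hour 30 and 1.99 CPM at hour 31, and from hour 32 to hour 36 it lay between 5.06 and 11.7 CPM. In dauer exit it fell from 20.5 CPM at hour 7 to 4.97 CPM at hour 8 and was back at 22.1 CPM at hour 9. After the low of hour 16 it lay between 3.60 and 9.90 CPM, so the later drop in each course was not followed by a return to the earlier level. Across the 16 N2 libraries, with the linear trend removed, the correlation of log2 levels was -0.79 between nhr-85 and lin-42, -0.84 between nhr-85 and grh-1, and 0.96 between lin-42 and grh-1. Across the 12 dauer exit libraries of hours 11 to 22 these were -0.66, -0.81 and 0.96. The points of 1 course share the 8 h cycle and, gene by gene, the same libraries.

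The pulses of successive cycles were compared at lags of 8 and 9 h. The correlation of each gene with itself 8 h later was 0.95 for nhr-85, 0.93 for grh-1, 0.93 for bed-3, 0.88 for lin-42, 0.73 for nhr-23, 0.72 for nhr-25 and 0.48 for blmp-1 (continuous N2, 8 pairs of hours; a description, since libraries of 1 course share the cycle). At least 0.7 was reached by 6 of 7 members and by 28.2% of all genes tested. At a lag of 9 h, blmp-1 had 0.93 and lin-42 0.92, while grh-1 had 0.697, nhr-23 0.61 and nhr-85 0.34. At that lag 0.7 was reached by 4 of 7 members and by 34.0% of all genes tested. In N2 the highest hour of 29 to 36 was set against that of 21 to 28. The interval was 7 h for nhr-23, 8 h for lin-42 and grh-1 and 9 h for bed-3, nhr-25 and blmp-1, sampled hourly. Some of these maxima were near ties. nhr-23 had 109 CPM at hour 29 and 103 CPM at hour 30, and nhr-25 had 49.7 CPM at hour 24 and 48.9 CPM at hour 25. Whether the interval differed between members was not tested. For nhr-85 the 8 h interval joined the first hours of those spans, with 27.0 CPM at hour 28 and 21.5 CPM at hour 29. When the period was left free, up to 12 h, the share of detrended variance in N2 was highest at 8.1 to 8.5 h for the other 6 members and at 12.0 h, the longest tried, for blmp-1, whose 8 h wave held 49.0% of it. In dauer exit the best periods ran from 7.6 h (nhr-85) to 12.0 h (nhr-23), with 10.0 h for lin-42 and 11.6 h for blmp-1.

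The highest libraries of the successive N2 cycles were then set side by side, without a test. bed-3 reached 174 CPM at hour 24 and 170 CPM at hour 33. lin-42 reached 651 and then 418 CPM, and grh-1 126 and then 79.8 CPM. nhr-25 had 49.7 CPM at hour 24 and 12.2 CPM at hour 33, the smallest ratio of later to earlier among these genes. nhr-23 kept its height, 116 CPM at hour 22 and 109 CPM at hour 29, but not its trough.

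After its first peak nhr-23 fell to 13.6 CPM at hour 25. After the next it fell to 41.2 CPM at hour 32 and then lay between 41.2 and 46.2 CPM through hour 36. Dauer exit showed the same: a low of 16.9 CPM at hour 10, and a slow decline in the next cycle to 49.8 CPM at hour 22. In glp-4, nhr-23 fell from 74.7 CPM at hour 44 to 12.6 CPM at hour 48 and 2.85 CPM at hour 52. Thus nhr-23 fell less far after the later peak than after the earlier one in both N2 courses. It was low in the last glp-4 libraries, where lin-42, nhr-25, nhr-85, blmp-1 and grh-1 also had their lowest level of that course, at hour 52.

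NHR-23 is also known to act in sperm formation in C. elegans. The summed level of msp-3 and msp-40, genes of the major sperm protein, was 0 at hour 22 in continuous N2, 24.4 CPM at hour 32 and 89.7 CPM at hour 36. In dauer exit it was 0 through hour 9, 31.0 CPM at hour 17 and highest at 68.7 CPM at hour 20. In glp-4 both genes had 0 reads in every library. The germline part in the nhr-23 level was not tested. With hours 21 to 31 alone, a choice made after the levels were seen, the amplitude of nhr-23 in N2 was 1.41 (adjusted p = 4.08e-05) against 1.04 over all 16 hours. Hours 32 to 36, where nhr-23 did not fall far, were left out, so a wider wave was built into that choice.

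**Figure D3:**
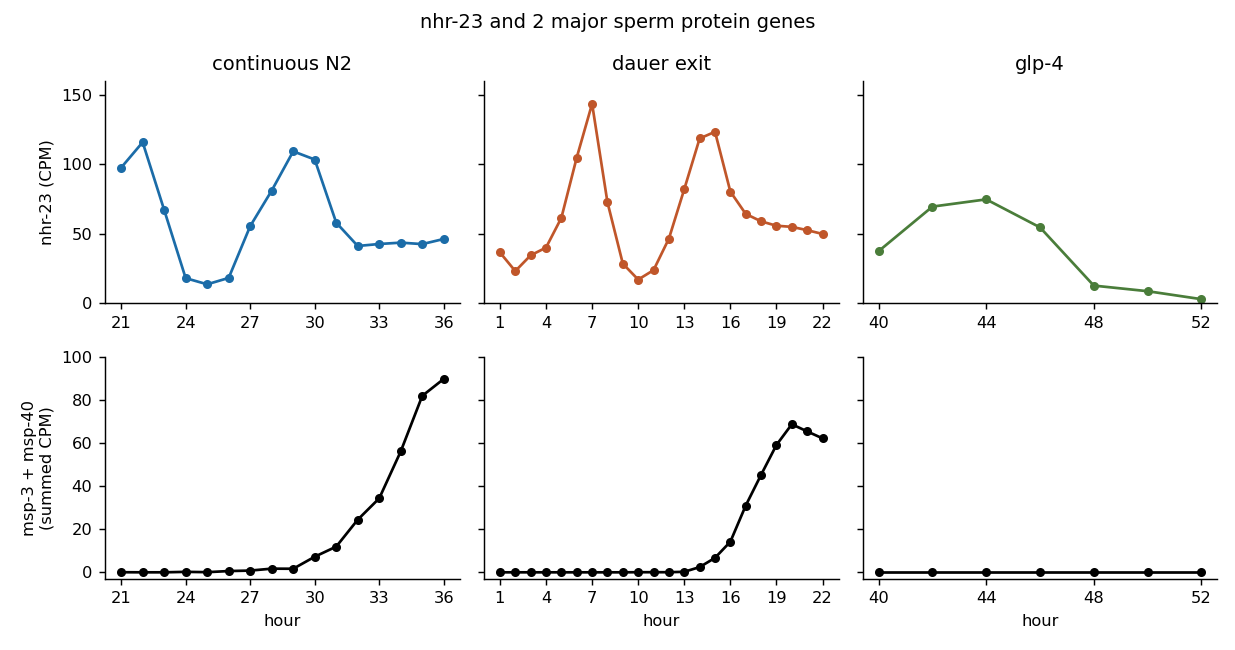
nhr-23 level (CPM, upper row) and the summed level of msp-3 and msp-40 (CPM, lower row) against the hour, 1 library per point. After its later peak nhr-23 stays at 41.2 CPM or more in both N2 courses. In glp-4, which holds a single pulse, it is 2.85 CPM at hour 52. The sperm genes rise in both N2 courses and have 0 reads in glp-4. A link between the rows was not tested.

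In the dauer exit course all 7 genes were expressed from the start, but lin-42 and bed-3 were near their lowest levels. bed-3 stood between 2.62 and 3.49 CPM from hour 1 to hour 5. lin-42 stood between 3.66 and 7.40 CPM over hours 1 to 4. Its next values were 19.8 CPM at hour 5, 72.5 CPM at hour 6 and 409 CPM at hour 7, and it was highest at 654 CPM at hour 8. grh-1 was between 9.30 and 23.6 CPM over hours 1 to 5 and reached 149 CPM at hour 8. At hour 1, nhr-25 (26.9 CPM) and nhr-85 (18.2 CPM) stood above their medians over the course (20.8 and 14.9 CPM). nhr-23 (36.5 CPM, median 55.3 CPM) and blmp-1 (49.3 CPM, median 80.9 CPM) stood below theirs.

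From hour 2 to hour 7 nhr-23 climbed from 23.1 to 144 CPM, the highest level it had in any library. blmp-1 climbed more slowly and for longer, from 49.7 CPM at hour 2 to 160 CPM at hour 9. bed-3 stood at 25.7 CPM at hour 8, 242 CPM at hour 9 and 200 CPM at hour 10. nhr-25 was highest at hour 11 (72.8 CPM) after a first maximum at hour 9 (60.3 CPM), and later stood at 3.43 CPM at hour 16.

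For the later dauer exit hours, 11 to 22, the 8 h wave was called for 6 of 7 members, where 32.7% of the 15360 genes tested were called. The amplitudes were 2.56 ± 0.24 for bed-3 (adjusted p = 0.000168), 2.12 ± 0.32 for lin-42 (adjusted p = 0.00199) and 1.80 ± 0.21 for grh-1 (adjusted p = 0.00055). They were 0.95 ± 0.12 for nhr-25 (adjusted p = 0.000697) and 0.78 ± 0.17 for blmp-1 (adjusted p = 0.0111). nhr-23 was called narrowly, 0.63 ± 0.19 (adjusted p = 0.0481), and its call held without hour 19 or hour 22 but was lost when any 1 of the other 10 libraries was left out. nhr-85 was not called (0.74 ± 0.22, adjusted p = 0.0588); without hour 18 its amplitude was 1.09 (adjusted p = 0.00388).

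The N2 courses were then set against each other. The dauer exit wave was moved by 6.59 h, the mean difference in peak over the 3468 genes called in both courses, and a fit over both courses tested whether a gene's wave still differed. No member was called (adjusted p from 0.860 for nhr-23 to 0.981 for grh-1), and none of the 15824 genes tested was, 0%; 877 genes had an unadjusted p below 0.05. With the move 0.5 h smaller or larger, 100 and 104 genes were called and still no member. The largest member difference in amplitude was -0.42 (dauer exit minus N2, log2) for nhr-23, and the peaks left over after the move differed by 0.06 to 0.36 h. These p-values do not show that the courses are alike. Hour by hour, with 15 h added to the dauer exit clock, the members' levels correlated at 0.91 (bed-3) to 0.97 (nhr-23) over 16 hour pairs, against a median of 0.80 for genes tested in both courses. The median level difference (dauer exit minus N2) lay between -0.01 for nhr-85 and 0.31 for nhr-23 (log2). The fitted move lies between 14 and 15 h on the circle of 8 h. With 14 h added, the correlations were 0.69 (nhr-85) to 0.93 (nhr-25), with a median of 0.69 over genes, and the level differences ran from -0.39 (lin-42) to 0.32 (nhr-23). The sign of the difference turned for lin-42, nhr-25, bed-3 and grh-1, so no direction is given for them.

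**Figure D4:**
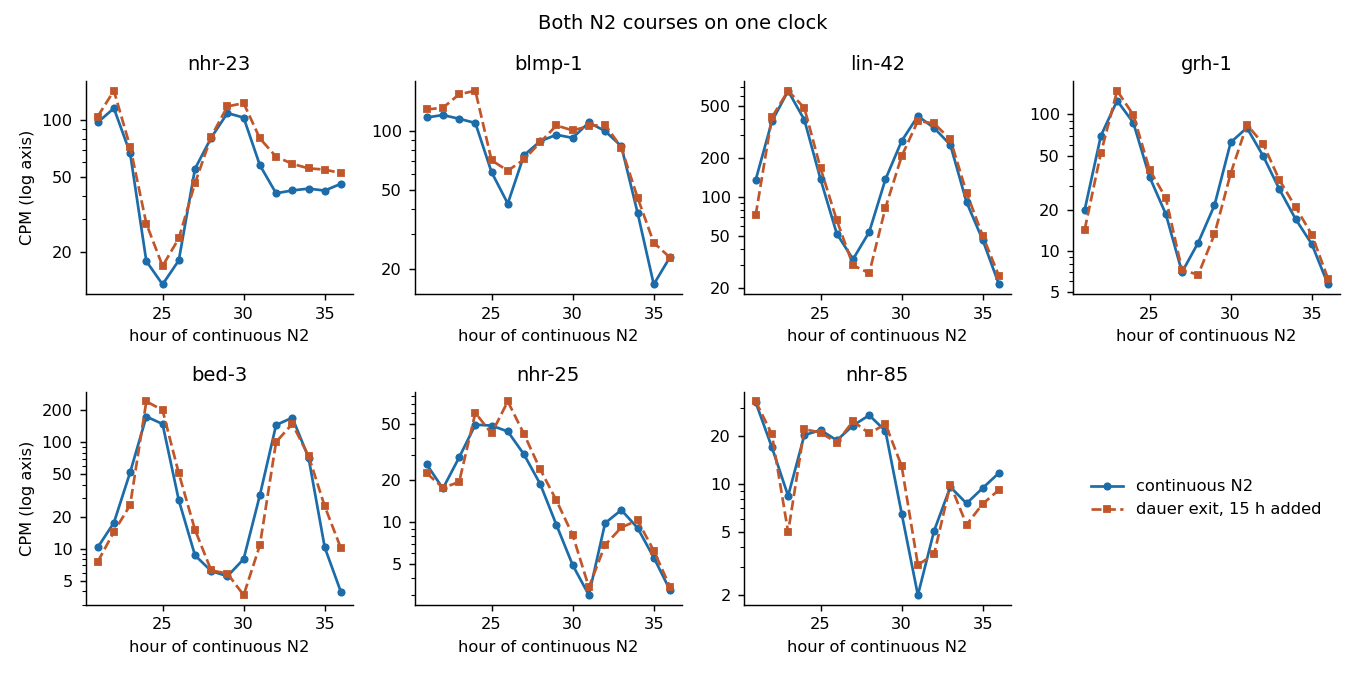
Level in CPM of each regulator in continuous N2 and in dauer exit with 15 h added to its clock, so that both share an axis of N2 hours; each point is 1 library. The curves rise and fall together from hour 21 to hour 36, with pulses of bed-3 at 174 and 170 CPM in N2 and at 242 and 149 CPM in dauer exit. At some hours they lie apart: bed-3 had 31.9 CPM at N2 hour 31 and 10.8 CPM at dauer exit hour 16. The fitted move lies between 14 and 15 h.

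Beneath the waves, 3 of the 7 regulators fell across continuous N2 (linear term, adjusted p below 0.05 and a change of at least 1 on the log2 scale), where 15.3% of the genes tested fell; none of the members rose, where 20.6% of genes rose. nhr-25 fell by 4.23 ± 0.32 (log2, hour 21 to hour 36, adjusted p = 4.07e-08). nhr-85 fell by 2.62 ± 0.45 (adjusted p = 0.000187). blmp-1 fell by 1.16 ± 0.39 (adjusted p = 0.0250), a call lost without hour 35 (adjusted p = 0.0595) or hour 36 (adjusted p = 0.103), and lost with library size in place of TMM (-1.07, adjusted p = 0.0574). lin-42, nhr-23, bed-3 and grh-1 did not pass the test.

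Over all 22 h of dauer exit, a smooth curve (natural spline with 3 degrees of freedom) gave a fall for 3 members, where 24.7% of genes fell: nhr-25 by 2.97 (log2, adjusted p = 3.90e-05), nhr-85 by 1.21 (adjusted p = 0.0119) and blmp-1 by 1.16 (adjusted p = 0.000163). Without hour 1 the fall of nhr-85 was too small to be called (-0.85), and so was that of blmp-1 without hour 20, 21 or 22 (-0.96, -0.91 and -0.87). grh-1 was not called (-0.88, adjusted p = 0.0789), although without hour 12, 13 or 14 it was (adjusted p = 0.0315, 0.0323 and 0.0497). The curve rose for lin-42 by 3.08 (adjusted p = 0.00390) and for bed-3 by 3.28 (adjusted p = 0.0281), where 29.9% of genes rose. For these pulse genes the smooth curve does not follow the levels: bed-3 had 3.49 CPM at hour 1 and 2.21 CPM at hour 22, and with 5 degrees of freedom its change was -1.10. That setting changed 5 of the 7 results: lin-42 (0.74) and nhr-85 (-0.71) moved too little to be called, while nhr-23 rose by 1.28 (adjusted p = 0.0377) and grh-1 fell by 2.78 (adjusted p = 0.000952). Without hour 2, 3 or 4 bed-3 was not called (adjusted p = 0.0649, 0.0596 and 0.0510).

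In glp-4 the 7 libraries held 1 broad pulse of the regulators. lin-42 was lowest at 16.4 CPM (hour 52), had a median of 125 CPM and was highest at 357 CPM (hour 46). grh-1 was highest at 63.3 CPM and blmp-1 at 162 CPM, also at hour 46, and nhr-23 at 74.7 CPM at hour 44. bed-3 was highest at 91.2 CPM at hour 48, after 7.46 CPM at hour 42. The highest libraries thus came in the order nhr-23, then lin-42, grh-1 and blmp-1, then bed-3, in steps of 2 h. nhr-25 (23.8 CPM at hour 40) and nhr-85 (33.3 CPM at hour 42) were highest at the start.

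The 8 h wave was called for 0 of 7 members in glp-4 and for 0 of 14407 genes, 0%; 549 genes had an unadjusted p below 0.05, and that fit had 3 residual degrees of freedom. DESeq2's likelihood ratio test called 180 genes and none of the members. The absence of calls in this small fit does not show that the members had no wave. A spline with 3 degrees of freedom, chosen after the single pulse was seen, was called for 7 of 7 members (adjusted p from 0.000266 to 0.00789, edgeR quasi-likelihood F-test), where 62.9% of genes had an adjusted p below 0.05. For that curve the percentage and the members' count rest on the adjusted p alone; 5884 of the 14407 genes also moved by at least 0.5 from mid-range (log2), as did the 7 members (0.79 to 2.34). A wave of 12 h, chosen likewise, was called for 6 of 7, all but nhr-85, where 21.2% of genes were called. In that fit nhr-23 peaked at 44.96 h, blmp-1 at 45.88 h, grh-1 at 46.06 h, lin-42 at 46.48 h and bed-3 at 47.68 h. The fitted peak of nhr-25 was at 49.62 h, although its level was highest at hour 40 (23.8 CPM) and was 6.26 CPM at hour 50. The linear term of the 8 h fit was called for nhr-25, which fell by 1.94 ± 0.24 (log2, adjusted p = 0.0211), and nhr-85, which fell by 2.05 ± 0.38 (adjusted p = 0.0488), where 1.53% of genes fell; 0 members rose, where 5.17% of genes rose. Neither call held without any 1 of the libraries of hours 42 to 50 (adjusted p of 0.0822 or more). nhr-23 was not called (-4.44 ± 1.06, adjusted p = 0.0958), although without hour 40 it was (adjusted p = 0.0331), and without hour 52 nhr-23 (adjusted p = 0.0365) and the rise of bed-3 (3.37, adjusted p = 0.0148) were called.

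Levels can be compared between genes per kilobase of exon. In continuous N2 the median level was 34.1 CPM per kb for lin-42, 26.2 for blmp-1 and 20.1 for nhr-23. It was 10.3 CPM per kb for bed-3, 8.22 for grh-1, 5.75 for nhr-25 and 5.70 for nhr-85. No neighbours in that order were separated in every library: lin-42 was above blmp-1 in 12 of 16 libraries, and blmp-1 above nhr-23 in 7 of 16. In dauer exit the order was blmp-1 (23.5 CPM per kb), nhr-23 (21.9), lin-42 (17.3), nhr-25 (8.10), grh-1 (6.25), nhr-85 (5.94) and bed-3 (4.65), again with neighbours crossing. In glp-4 it was blmp-1 (32.1 CPM per kb), lin-42 (31.3), nhr-23 (14.8), bed-3 (12.9), grh-1 (8.88), nhr-85 (6.32) and nhr-25 (2.98), and only the last neighbours, nhr-85 above nhr-25, were in the same order in 7 of 7 libraries.

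**Figure D5:**
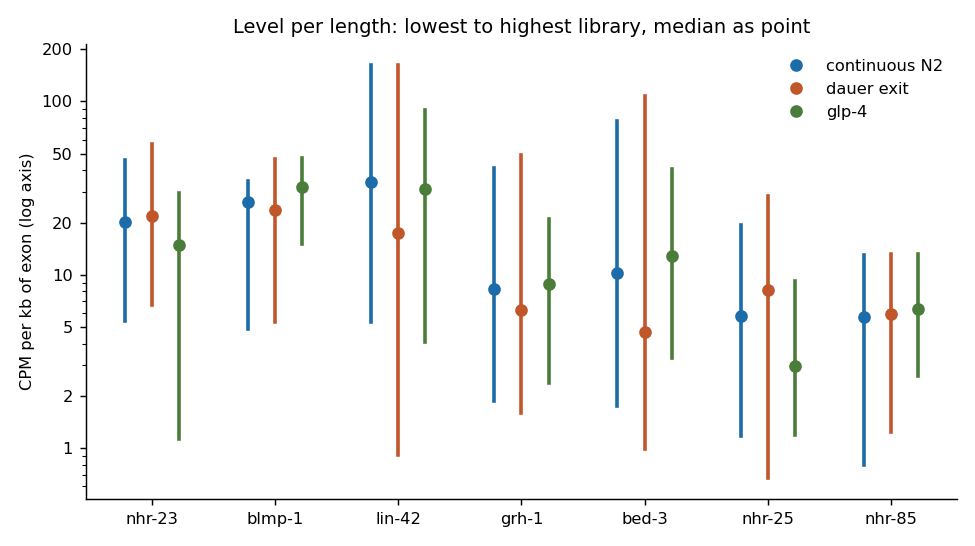
Level per length (CPM per kb of exon, log axis) of each regulator in the 3 courses; the point is the median library and the line runs from the lowest to the highest library. lin-42 reaches 163 CPM per kb in dauer exit and bed-3 reaches 107 CPM per kb there, although its median is 4.65 CPM per kb.

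The other genes of the cycle showed where these 7 stood. Of 24 further regulators of larval development, 23 were tested in N2 and 13 were called for the wave, with a median amplitude of 0.61 (log2); 16 fell and 0 rose. In dauer exit 13 of 22 were called. The widest called waves of that list in N2 were nhr-74, a nuclear receptor (1.45, peak 23.06 h), bro-1, the CBF-beta relative that partners Runx in seam cells (1.23, 22.81 h), and lin-46, a heterochronic gene (1.05, 27.01 h). In dauer exit their amplitudes were 2.11, 1.23 and 1.42. In N2 the fitted amplitude of nhr-74 was below those of bed-3, lin-42 and grh-1, whereas in dauer exit it was close to that of lin-42 and above that of grh-1; the differences were not tested.

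Genes tied to the members by known interactions were compared in the same course. kin-20, the relative of the Drosophila clock kinase Doubletime, was called with an amplitude of 0.68 and peaked at 25.96 h, after lin-42. tim-1, named for its likeness to Timeless, was not called (0.20) and lay between 51.3 and 79.0 CPM. dre-1, an F-box protein that targets BLMP-1 for degradation, had 0.72 and peaked at 22.87 h. myrf-1, a membrane-bound factor required for molting, had 0.93 at 22.06 h, and pan-1, the membrane protein that partners it, had 0.74 at 21.87 h. lin-29, the zinc-finger factor of the larval-to-adult switch, had 0.71 at 22.70 h. The fitted peaks of dre-1, myrf-1, pan-1 and lin-29 lay between those of nhr-23 and blmp-1.

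Of 22 genes for molting enzymes, cuticle collagens and precuticle proteins, 21 were called in N2, with a median amplitude of 2.57 (log2), and 21 in dauer exit, with 2.65. The widest waves of the list in N2 were those of bli-1, a collagen of the adult cuticle (3.32, peak 22.46 h), mlt-10, a secreted molting protein (3.15, 24.05 h), and qua-1, a hedgehog-related gene needed for molting (2.92, 23.43 h). bli-1 also rose by 14.2 ± 1.55 (log2) in the linear term of that fit, and its amplitude had an SE of 0.66. Its wave was thus fitted on top of a change larger than the wave. The mlt-10 peak lay between those of grh-1 and bed-3. dpy-7, a furrow collagen, peaked at 22.48 h in N2 with an amplitude of 2.65. nas-37, an astacin protease that acts in shedding of the old cuticle, had 2.53 at 23.07 h. In N2 only bed-3 of the 7 regulators had an amplitude above this list's median, and in dauer exit none had.

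The genes whose log2 levels were most like each member's, with linear trends removed, were sought among 10143 genes over 28 N2 libraries (16 continuous and 12 dauer exit). Mean correlations were highest for bed-3, 0.98 to 0.99 with ptr-17, cpg-19, F33A8.7, R01E6.2 and nas-14. For lin-42 they were 0.98 with cest-31, bus-12, acn-1, T27A10.6 and nstp-3. nhr-23 had 0.92 to 0.95 with C45B11.6, Y54G2A.18, ifb-1, ugt-60 and fat-2. grh-1 had 0.97 to 0.98 with B0393.5, cutl-28, T10H10.2, cbn-1 and gei-13, and blmp-1 had 0.95 to 0.97 with K10D3.4, slcr-46.1, mxt-1, Y47D3A.32 and K11D12.7. nhr-25 had 0.91 to 0.95 with col-107, ram-2, K01D12.9, col-157 and lat-2. nhr-85 had the weakest, 0.82 to 0.84 with col-144, cest-24, gpa-12, myo-6 and col-10. The correlations are descriptions over libraries that share the cycle and that chose the genes. The 7 glp-4 libraries were not used in the choice, and linear trends were not removed there, so their correlations are not the same measure. In glp-4 the correlations ran from 0.91 to 1.00 for the bed-3 genes and from 0.38 (cest-31) to 0.98 for the lin-42 genes. They were below 0 for slcr-46.1 (-0.49) and K11D12.7 (-0.45) of the blmp-1 genes, ifb-1 (-0.21) and fat-2 (-0.18) of the nhr-23 genes, K01D12.9 (-0.07) of the nhr-25 genes, and cest-24 (-0.41) and gpa-12 (-0.35) of the nhr-85 genes.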

How the data were processed

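PolyA-selected RNA from whole worms was sequenced by the submitters, with a stranded kit per the labels' protocols. The authors' deposited tables hold raw counts per gene and log2 values; the log2 values equal log2(count / library total x mean total of the course + 8) within 0.0001 and were not used further. No source used here gives the aligner, annotation or build behind the counts. Gene positions and lengths are from Ensembl release 115 (WBcel235).

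From the counts, edgeR 4.0.16 in R 4.3.3 (filterByExpr, TMM, quasi-likelihood F-test, Benjamini-Hochberg adjustment over all genes) fitted each course separately: intercept, linear hour and an 8 h wave, on hours 11 to 22 for dauer exit. CPM used library totals. Named genes were the 7 members, a list of genes with known ties to them, the 3 widest called N2 waves of the regulator and molting gene lists, and the 5 genes most like each member. The members and lists were chosen with earlier results of these data known. Alternatives were other normalizations, no filter, DESeq2 1.42.0, other periods and leaving out each library. The fits were tested on simulated counts, with recovery at adjusted p below 0.05. Waves of amplitude 1 (log2) were recovered for 83.8% of genes in N2, 63.8% in dauer exit and 0% in glp-4. At amplitude 2 these were 100%, 93.8% and 71.2%. Waves placed in dauer exit alone were recovered by the fit over both courses for 34.2% at amplitude 1 and 67.7% at 2. For that simulation the scatter came from a wave and linear hour shared by both courses, without a course term or clock move. The fit of the data had both, so these shares need not hold for it. Linear changes of 2 were recovered for 78.3% in N2 and 3.33% in glp-4.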

Additional observations from a re-analysis of the deposited data

How the results depend on the processing

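No paired analysis was possible because each hour has 1 library and a replicate number names only an hour within its own course. Of the counts of called members, the N2 wave went from 7 to 5 with a 7 h period (nhr-85 adjusted p = 0.178, blmp-1 0.272), and the wave in dauer exit went from 6 to 2 with a 7 h period and to 3 without the linear term. The wave in glp-4 went from 0 to 6 with a 12 h period and to 7 with a spline. Leaving out each library in turn gave 6 to 7 members for the N2 wave, 5 to 6 for the dauer exit wave, 0 for the glp-4 wave, 2 to 3 for the N2 trend, 0 to 4 for the glp-4 trend and 4 to 6 for the change over dauer exit. The change of bed-3 over dauer exit reversed to -1.10 with 5 spline degrees of freedom. The dauer exit call of nhr-23 was lost with RLE size factors (adjusted p = 0.0514) and without the filter (0.0543), while nhr-85 was called with library size only (0.0434) and with DESeq2 (0.0245). With hours 21 to 31 alone, a choice made after seeing the data, the N2 amplitude of blmp-1 was 0.47, under the limit. Over all genes, the wave calls fell from 4116 to 2086 in N2 and from 5025 to 1076 in dauer exit with a 7 h period, and to 2228 in dauer exit without the linear term. In glp-4, DESeq2 called 1554 rises and 621 falls against 745 and 220, and library size alone gave 404 falls; leaving out each glp-4 library gave 17 to 1734 rises and 0 to 549 falls. The causes were not tested. With 1 library per hour, no value has a replicate culture, and 8 h was sampled by 8 libraries in N2 and dauer exit but by 4 in glp-4.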
